A study of Oryza sativa Japonica Group with 12 samples.

Results

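In rice panicles, 200 probe sets of the Affymetrix Rice GeneChip gave high signals before flowering (BF) and signals at least 64.3-fold lower at 5 days after pollination (5 DAP), in wild type (WT) and in the fst mutant alike. They were chosen among 57258 probe sets, control probe sets left out, of which 56682 differed between the genotypes before flowering by less than 1 on the log2 scale. These were ranked by the smaller of their falls in mean log2 signal from BF to 5 DAP, that in WT and that in fst, and the 200 largest were taken, which is 0.349% of all. Both falls, and the bound on the genotype difference before flowering, were thus set by the choice, so the values of those contrasts are given as a description with no test, as is the genotype difference at 5 DAP that follows from them.

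Panicles were sampled from greenhouse rice under natural daylight, in 4 groups of 3 arrays, each array from a pool of 20 panicles of 10 plants. The groups were WT (cv. Junambyeo) before flowering (WBF), the fst mutant before flowering (MBF), WT at 5 DAP (W5D) and fst at 5 DAP (M5D). fst is a spontaneous female-sterile mutant with a frame shift in FST, which encodes the MADS-box factor OsMADS29, and the labels call it by its earlier name, cynosure. In the labels the mutant arrays are described as 'cyn wild lines' while title, source and genotype name the mutant, and these were followed. Whole panicles were measured with all their tissues, so fewer cells of a type and less RNA per cell cannot be told apart.

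Before it opens, a rice floret holds anthers full of ripening pollen beside the ovary, the lodicules and the hulls, and after pollination the anthers are shed or dry out while the ovary grows. Pollen stores many transcripts ahead of germination, when a tube grows at its tip through the stigma. That growth runs on the turnover of actin filaments, on calcium signals read by kinases and calmodulin-like proteins, on loosening of cell walls by expansins and related enzymes, and on sugar taken up from outside. The anther wall is lined by the tapetum, a layer of nursing cells that breaks down before the pollen is ripe.

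The annotation gave 1 gene each to 148 of the 200 probe sets, 144 genes in all, and none to the other 52. A name other than a locus number was carried by 19 genes, so what most of the genes do cannot be said here. The 19 named genes included 3 actin-depolymerizing factors (ADF1, ADF6 and ADF9), the villin VLN4, the expansins EXPB9, EXPB10 and EXPA32, 3 calcium-dependent protein kinases (CPK2, CPK22 and CPK29), CIPK30, CML32 and the sugar transporter SWEET5. The other 6, named here after their values were seen, were FBA2, Cht7, BGLU38, NifU1, YSL4 and YSL7. Of 9 markers set down for mature pollen only 2 could be matched by name, of which EXPB10 was among the 200 and OsSUT1 was not, with mean signals of 444 in WBF and 405 in W5D. The label of a pollen set was therefore not put on the 200, and they are called by their rule.

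Other tissues moved between the stages as well. Of 8 tapetum markers 6 were found and none was among the 200, and their summed signal ran from 7155 to 16918 in WBF and 1698 to 8238 in MBF against 79.2 to 87.8 in W5D and 84.7 to 106 in M5D. RTS, an anther gene of rice, accounted for most of it. TDR, C6 and BHLH141 were also called lower at 5 DAP in both genotypes, while PTC1 and CYP703A3 stayed near the lowest signals in every group. Before flowering the mean signals of TDR, C6 and BHLH141 were 271, 776 and 126 in WBF and 108, 258 and 47.7 in MBF. The 20 probe sets of the endosperm markers summed to 2953 to 3068 in WBF and rose to 13276 to 35066 in W5D. In fst their sums overlapped between the stages, with 3141 to 3680 in MBF and 3229 to 3922 in M5D. The 3 ovule markers rose in both genotypes. Green tissue markers summed to between 31790 and 39376 on every array, and the part of these tissues in the falls described below was not tested.

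All 200 probe sets lay far apart between the stages. Their median signal was 3135, 3370 and 2847 on the WBF arrays and 3858, 3815 and 3638 on the MBF arrays. At 5 DAP it was 14.4, 13.7 and 13.9 in WT and 16.1, 13.8 and 17.2 in fst, below the median of all probe sets, which was 30.8 to 33.6. In both genotypes every array before flowering lay above every array at 5 DAP for all 200. The lower quartile of the signals of an array was 10.1 to 11.3, and on all 3 arrays of a group 47 of the 200 were below it in W5D, 31 in M5D and 0 in either group before flowering, so for these the fall is bounded by the array's lowest signals.

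**Figure D1:**
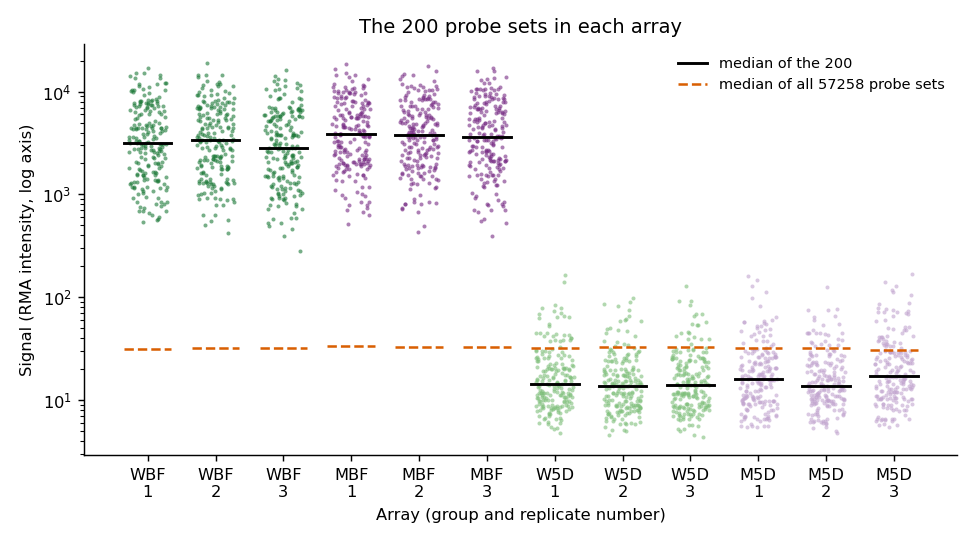
Signal of each of the 200 probe sets (points, log axis) on the 12 arrays, with the median of the 200 (black line) and of all 57258 probe sets (dashed line). Before flowering the medians were 2847 to 3858, at 5 DAP 13.7 to 17.2, and the clouds of the stages do not meet for any probe set.

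The fall in WT had a median of 7.45 on the log2 scale, or 174-fold, and ran from 6.01 to 10.14 (64.3-fold to 1128-fold). In fst the median was 7.55 (188-fold) and the range 6.02 to 9.82 (65.0-fold to 904-fold). The smaller fall was over 8 for 64 probe sets and over 9 for 21. Over all probe sets the median change was 0.06 in WT and 0.01 in fst, and falls of at least 6.01 were given by 227 probe sets in WT and 257 in fst. Rises of that size were seen in 70 probe sets in WT and 8 in fst.

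The falls in WT and in fst were close to each other, as the choice favours. They lay within 1 log2 unit for 192 of the 200, the larger being that in fst for 107 and that in WT for 93, and the fall in fst minus that in WT had a median of 0.10 with a range of -1.37 to 1.20. BGLU38, of the family of beta-glucosidases, marked the lower end, with a fall of 8.64 in WT and 7.27 in fst. The upper end was LOC4339818, with 6.32 in WT and 7.52 in fst.

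**Figure D2:**
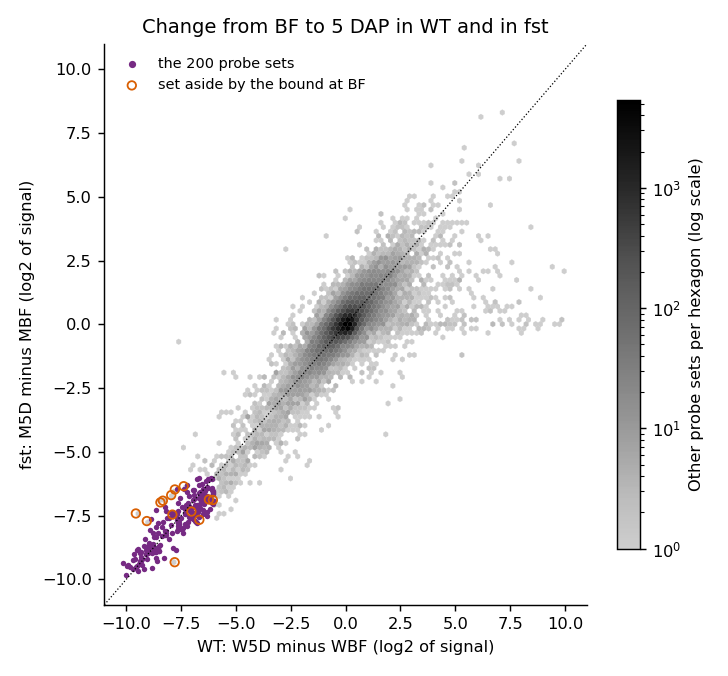
Change in mean log2 signal from BF to 5 DAP in WT (horizontal) and in fst (vertical), with the 200 probe sets in purple, the 13 that the bound on the genotype difference before flowering set aside as open circles, and all others as grey hexagons (log scale of counts). The 200 fill the lower left corner along the diagonal, from falls of 6.01 to 10.14, and rises of that size are seen in 70 probe sets in WT and 8 in fst.

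The falls were also measured in arrays that had no part in the choice. When the rule was applied without replicate 1, 2 or 3 of every group, 190, 189 and 193 of the 200 were chosen again. In the arrays left out, the 200 then chosen fell by a median of 7.44, 7.61 and 7.37 in WT and 7.57, 7.71 and 7.37 in fst. All of them fell in both genotypes each time, the smallest fall being 4.63 (24.8-fold) in WT and 4.48 (22.3-fold) in fst. The left-out arrays belonged to the same groups as those used for choosing. Over all probe sets the arrays of a group were alike (r from 0.990 to 0.996), though a few of the 200 were uneven between them. These falls are a description and no independent support.

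The steepest falls belonged to genes of which only EXPB10 carries a name. Os.12306.1.S1_at, which has no listed gene, had the largest smaller fall. Its signals were 8267, 8213 and 6566 in WBF and 9142, 8317 and 8158 in MBF, against 8.95, 6.47 and 6.94 in W5D and 9.06, 8.43 and 11.01 in M5D, a fall of 10.02 (1035-fold) in WT and 9.82 (904-fold) in fst. In each genotype the arrays of a stage were close together and the stages far apart. LOC4335465 came next after EXPB10, with 7732, 7936 and 7124 in WBF, 6999, 6796 and 7249 in MBF, 15.7, 8.94 and 7.26 in W5D and 7.96, 8.95 and 11.8 in M5D. LOC4341714 gave 13716, 12519.8 and 11984 in WBF and 11074, 11447 and 10297 in MBF, and 14.99, 9.81 and 14.9 in W5D and 12.2, 13.9 and 22.4 in M5D. At 5 DAP all of these were below the median of their array. The others of the first 10 were LOC4348583, LOC4329295, LOC4329773, Os.12270.1.S1_at, LOC4341242 and Os.10395.1.S1_s_at, with smaller falls of 9.35 to 9.52, and the last of them had the largest fall in WT, 10.14, beside 9.35 in fst.

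Among the brightest before flowering were LOC4347012, EXPB9, Os.12270.1.S1_at, LOC4331323 and Os.10395.1.S1_s_at, although probe sets differ in how strongly they bind and their signals do not rank transcripts. LOC4347012 gave 16904, 19124 and 16299.6 in WBF and 18539, 17820 and 17136 in MBF. At 5 DAP it was down to 62.1, 19.97 and 35.1 in W5D and 47.9, 28.1 and 73.7 in M5D, which is 8.95 lower in WT and 8.59 lower in fst. The arrays thus lay closer together before flowering than at 5 DAP. The same was seen across the 200, whose SD between the arrays of a group had a median of 0.19 (WBF) and 0.13 (MBF) log2 units before flowering and 0.26 (W5D) and 0.29 (M5D) at 5 DAP.

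Expansins loosen cell walls as cells grow, and in maize beta-expansins are set free by pollen and soften the tissue in front of the tube. EXPB10 had the second largest smaller fall. It gave 10452, 9262 and 7407 in WBF and 10210.5, 10312 and 7891 in MBF, and 11.5, 11.6 and 9.195 in W5D and 10.7, 12.1 and 13.4 in M5D, so it fell by 9.70 (835-fold) in WT and 9.61 (782-fold) in fst. EXPB9 gave 14505, 14648 and 14047 in WBF and 14022, 14782 and 15862 in MBF, and 77.6, 98.9 and 54.5 in W5D and 81.5, 45.1 and 105 in M5D. Its fall was 7.59 in WT and 7.67 in fst, ending well above the lowest signals. For both genes the genotypes overlapped at each stage.

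EXPA32, an alpha-expansin, gave 2030.3, 2255 and 2800.3 in WBF and 3832, 3596 and 4004 in MBF, and 24.9, 17.04 and 12.1 in W5D and 19.02, 15.6 and 24.7 in M5D. Every MBF array lay above every WBF array, and the genotypes overlapped at 5 DAP. Most other expansins did not share these falls. The beta-expansins were measured by 12 probe sets of 11 genes, of which 4 were called lower and 5 higher at 5 DAP in each genotype (limma, Benjamini-Hochberg adjusted p under 0.05). The 4 lower include EXPB9 and EXPB10, chosen for their falls. Of all probe sets 14.9% were called lower and 16.4% higher in WT, and 11.2% and 15.6% in fst. EXPB7 rose the most, by 5.18 in WT (adjusted p of limma 2.16e-11) and 5.24 in fst (1.67e-11), and EXPB6, EXPB3 and EXPB11 also rose in both, by 1.84 to 3.03. EXPB2 and EXPB8 fell, EXPB2 by 3.80 in WT and 4.94 in fst and EXPB8 by 2.38 and 2.12. Of 16 probe sets of alpha-expansins, 4 were called lower and 5 higher in WT, and 5 and 4 in fst, EXPA26 and EXPA29 being those besides EXPA32 that fell by more than 2 in both.

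Actin-depolymerizing factors cut and recycle actin filaments, and villins bind them side by side into bundles. ADF9 gave 4649, 4315 and 3815 in WBF and 4839.7, 4606 and 4755 in MBF, and 8.28, 7.76 and 8.46 in W5D and 10.3, 7.16 and 11.2 in M5D, a fall of 9.02 in WT and 8.98 in fst. ADF6 gave 4419, 4068 and 3188 in WBF and 4598, 4707 and 4401 in MBF, and 20.7, 14.8 and 25.8 in W5D and 19.2, 16.9 and 22.7 in M5D. ADF1 gave 7157, 6501 and 5825 in WBF and 7302, 7547 and 7066 in MBF, and 63.6, 66.1 and 57.03 in W5D and 57.5, 65.3 and 72.1 in M5D. The 3 genes fell in the order ADF9, ADF6, ADF1 in both genotypes, and at each stage the genotypes overlapped for each of them. VLN4 gave 3146, 3644 and 2287 in WBF and 4080.4, 3829 and 2885 in MBF, and 20.4, 27.6 and 23.7 in W5D and 28.7, 33.8 and 27.4 in M5D, and its other probe set, Os.53481.1.S1_x_at, fell by 5.45 in WT and 5.56 in fst.

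The family of actin-depolymerizing factors split by stage. The array held 9 genes of it, each with 1 probe set. ADF4 and ADF2, bright at both stages, were not called in either genotype, with changes of 0.04 and 0.13 in WT and 0.05 and 0.19 in fst. ADF5 rose by 0.98 in WT (adjusted p of limma 2.96e-05) and 1.67 in fst (1.74e-07), and ADF10 fell by 0.89 and 0.70. Among the villins VLN2 fell by 0.99 in WT and 0.81 in fst and VLN1 rose by 0.85 and 1.13. A list of actin and tip growth genes, 38 probe sets of 28 genes with these 4 among them, had 18 called lower and 7 higher in WT and 12 lower and 8 higher in fst. Over all probe sets 14.9% were called lower and 16.4% higher in WT, and 11.2% lower and 15.6% higher in fst.

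Calcium-dependent protein kinases join a kinase to a calcium-binding domain, CIPK kinases are switched on by calcineurin B-like sensors, and CML proteins resemble calmodulin. CPK29 gave 2990.2, 3568 and 3815 in WBF and 5331, 4791 and 6097 in MBF, and 24.2, 24.1 and 17.4 in W5D and 32.03, 22.02 and 45.2 in M5D, so it fell by 7.31 in WT and 7.41 in fst. CPK2 gave 1534, 1819 and 1822 in WBF and 2360.5, 2416 and 2677 in MBF, and 12.1, 19.1 and 11.6 in W5D and 12.3, 13.4 and 19.6 in M5D. CPK22 gave 1868, 2169.8 and 1736 in WBF and 3002, 3108 and 3357 in MBF, and 14.7, 23.4 and 19.6 in W5D and 18.1, 11.1 and 23.3 in M5D. For all 3 kinases the MBF arrays lay above the WBF arrays without overlap, by 0.65, 0.53 and 0.72 in mean log2 signal, while the genotypes overlapped at 5 DAP.

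CIPK30 gave 799.6, 1013 and 1042 in WBF and 1387, 1278 and 1553 in MBF, and 8.64, 9.76 and 8.03 in W5D and 9.54, 10.1 and 9.04 in M5D. CML32 gave 1339.6, 1406 and 1069.8 in WBF and 1682, 1594 and 1551 in MBF, and 11.7, 17.4 and 25.2 in W5D and 17.8, 11.7 and 15.3 in M5D. These too were higher in every MBF array than in any WBF array. Of 96 probe sets of calcium kinases and sensors 41 were called lower and 18 higher in WT, and 28 lower and 24 higher in fst, the 5 named here included. The shares over all probe sets were 14.9% lower and 16.4% higher in WT, and 11.2% and 15.6% in fst. CPK6 (5.28 in WT and 6.19 in fst) and CIPK20 (4.10 and 4.77) also fell far. CPK21 fell by 2.15 in WT and by 5.09 in fst. CIPK5 fell by 6.62 in WT but by 5.64 in fst, which left it outside the 200, and CPK23 rose by 2.81 and 1.98.

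SWEET5, of a family of sugar transporters, gave 4305, 5272 and 6231 in WBF and 7939, 6889.9 and 8664 in MBF, and 42.3, 47.04 and 44.6 in W5D and 58.2, 38.3 and 74.6 in M5D. It was higher in every MBF array than in any WBF array. No other of the 15 SWEET probe sets fell by more than 2 in either genotype, and SWEET11 rose by 2.31 in WT and 2.22 in fst. A list of 27 probe sets for sugar transporters and invertases had 11 called lower and 7 higher in WT and 6 lower and 8 higher in fst. SWEET5 was among those lower, and of all probe sets 14.9% were lower and 16.4% higher in WT, and 11.2% and 15.6% in fst.

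YSL proteins carry metals bound to nicotianamine or to related chelators. YSL7 gave 3628, 3771 and 3996 in WBF and 3807, 3917 and 4362 in MBF, and 25.6, 24.6 and 24.5 in W5D and 46.6, 26.7 and 58.7 in M5D. YSL4 gave 1375, 1418 and 768 in WBF and 739.7, 743 and 389.6 in MBF, and 5.16, 7.68 and 8.62 in W5D and 7.99, 6.28 and 6.43 in M5D. YSL4 was lower in every MBF array than in any WBF array, and in each genotype replicate 3 was the lowest, whereas YSL7 overlapped between the genotypes before flowering. YSL8, YSL1, YSL18 and YSL10 fell as well, by 2.89 to 3.66 in WT and 2.33 to 4.55 in fst, and a probe set of YSL12 rose by 3.08 and 3.60.

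The remaining named genes act in metabolism and defence. FBA2, a fructose-bisphosphate aldolase of glycolysis, gave 4790.1, 4809.9 and 3815 in WBF and 6254, 5616 and 4661 in MBF, and 10.6, 7.25 and 7.09 in W5D and 10.98, 7.26 and 15.4 in M5D, a fall of 9.09 in WT and 8.997 in fst. Cht7, a chitinase, gave 10469.7, 10188 and 10841 in WBF and 10875, 10921 and 12021 in MBF, and 28.1, 37.5 and 23.8 in W5D and 26.7, 18.6 and 25.9 in M5D. No other of the 13 chitinase probe sets fell by more than 2 in either genotype, and 8 of them were called higher at 5 DAP in WT and 7 in fst, Cht2 and Cht11 included. Over all probe sets 16.4% were called higher in WT and 15.6% in fst. BGLU38 gave 2592, 3676 and 2833 in WBF and 2224, 1451 and 1425 in MBF, and 7.31, 8.52 and 6.88 in W5D and 10.4, 11.3 and 10.7 in M5D, lower in fst before flowering and higher in fst at 5 DAP without overlap. At 5 DAP its signals were below the lower quartile of the arrays (10.1 to 11.3) in W5D and near it in M5D. NifU1, named for the scaffold proteins on which iron-sulfur clusters are built, gave 6999.6, 6939 and 5743 in WBF and 8285, 8505 and 9037 in MBF, and 37.3, 31.7 and 29.4 in W5D and 59.98, 63.6 and 77.03 in M5D, higher in fst at both stages without overlap.

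**Figure D3:**
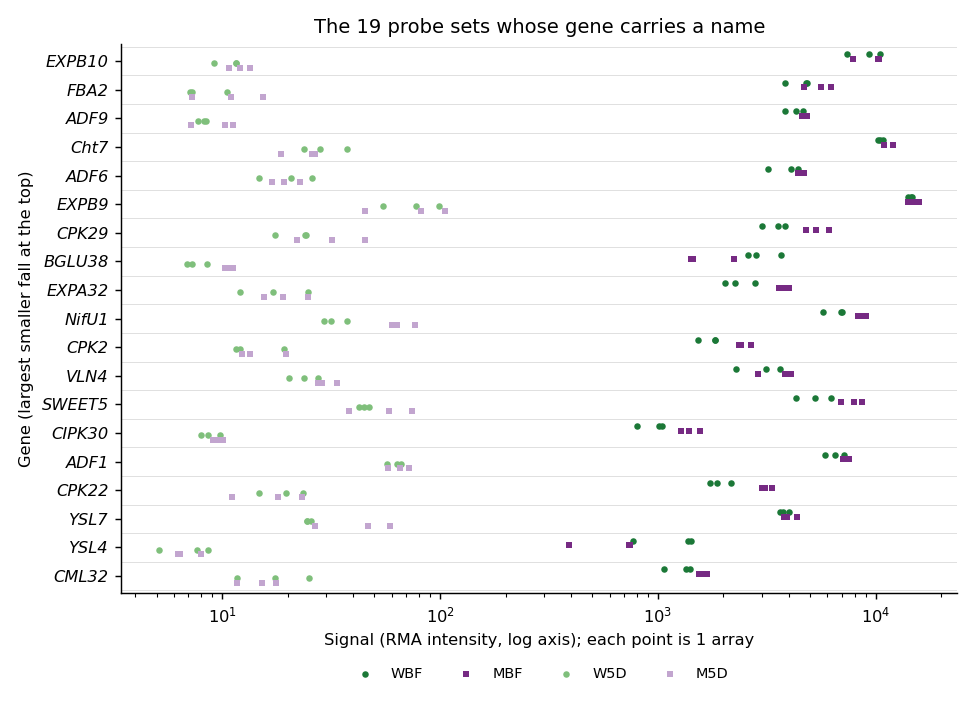
Signals (log axis) of the 19 named genes on every array, circles for WT and squares for fst, dark before flowering and light at 5 DAP, ordered by the smaller fall. Each gene leaves a wide gap between the stages, from 6.19 log2 units in the WT mean of CML32 to 9.70 in that of EXPB10.

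**Figure D4:**
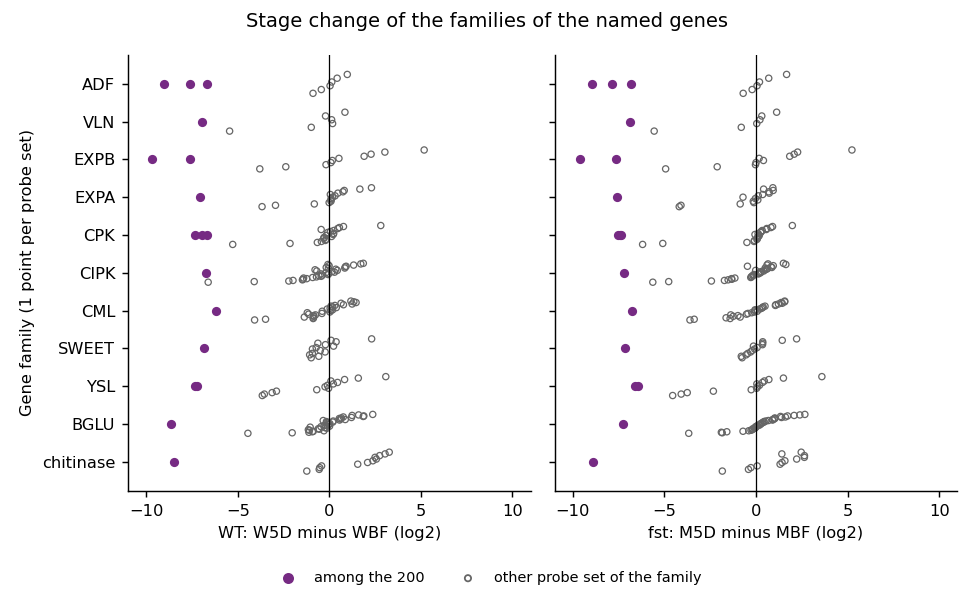
Change in mean log2 signal from BF to 5 DAP in WT (left) and fst (right) for every probe set of the 11 families of the named genes, 1 point per probe set, with those among the 200 in purple. In each family the purple points stand at 6.19 or more below zero, the others mostly between -5 and 5, with EXPB7 the highest at 5.18 in WT and 5.24 in fst.

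These families were taken up because a gene of theirs was among the 200, so the falls of those genes say nothing of the families. Of the 14 lists drawn up for pollen, anthers and the later seed, 13 could be matched to probe sets, and the 13 named genes from them came from 4 lists. The lists of pollen tube signalling, ion transport, tapetum, meiosis, jasmonate, floral MADS, photosynthesis, seed storage and ribosomal protein genes held none of the 200. Lists were matched by gene name, which only 19 of the 144 genes carry, so such genes may still be among the 200. Among 18 tapetum and anther probe sets 9 were called lower and 4 higher in WT, and 8 lower and 4 higher in fst. Of 41 probe sets for ion transporters and pumps 14 were called lower and 7 higher in WT and 9 lower and 13 higher in fst. Beside both lists, 14.9% of all probe sets were called lower and 16.4% higher in WT, and 11.2% and 15.6% in fst.

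Several probe sets of a gene mostly moved together. LOC4336794 had 3 among the 200, with falls of 6.04 to 6.96 in WT and 6.98 to 7.42 in fst, and LOC4346564 and LOC4346934 had 2 each. Outside the 200 there were 15 more probe sets for 12 of the genes, of which 10 were called lower in both genotypes and 8 fell by more than 2 in both. For LOC4333789, LOC4337660 and LOC4340325 another probe set did not fall. Os.27383.1.S1_at for LOC4333789 gave 10111, 9269 and 8673 in WBF and 19.1, 17.1 and 17.5 in W5D, but its probe sets Os.27383.2.S1_at and Os.27383.2.S1_x_at rose by 0.88 and 0.79 in WT and by 0.73 and 0.45 in fst. For LOC4337660, Os.51828.2.S1_at fell by 8.18 in WT and 7.32 in fst while Os.51828.1.S1_at rose by 1.42 and 1.17. Os.37590.1.S1_at for LOC4340325 was called in neither genotype, with changes of 0.14 in WT and 0.35 in fst, where Os.10266.1.S1_at fell by 6.57 and 6.74. The second probe set of NifU1 was near the lowest signals in every group, and 20 of the 200 have a suffix that warns of binding to more than 1 transcript.

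The 144 genes were spread over all 12 chromosomes of the rice genome, and 5 pairs were next to each other in the gene order of the RefSeq annotation. LOC4331323, the neighbour of EXPB10, gave 15189, 14419 and 12070.1 in WBF and 14664, 14571 and 13976 in MBF, and 44.3, 19.8 and 20.7 in W5D and 16.1, 24.04 and 38.7 in M5D. It fell by 9.04 in WT and 9.19 in fst, close to the falls of EXPB10. LOC4335465 and LOC4335467, both among the steepest, fell by 9.56 and 8.82 in WT and by 9.54 and 9.56 in fst. The pair LOC4351129 and LOC4351130 fell by 7.35 and 7.62 in WT, the pair LOC4334664 and LOC4334665 by 7.59 and 8.21, and the pair LOC4342211 and LOC4342212 by 6.77 and 8.79. In the last pair, and for LOC4351130, the probe sets belong to shared clusters or carry a suffix for cross-binding (its part in the likeness was not tested).

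Before flowering most of the 200 were somewhat brighter in fst, within the bound of the rule. In fst 153 were higher and 47 lower, with a median difference of 0.27, against 0.04 over all probe sets. It was -0.06 over the 7723 others that were at least as bright in WBF as the dimmest of the 200. That cut was made on WBF alone, at a signal of 565 against a median of 3146 for the 200, so those others are not matched in brightness. Every MBF array lay above every WBF array for 90 of the 200, with 15% of all probe sets doing so, and below for 16, with 13.5% of all. Since the rule limited this difference, the counts describe the chosen probe sets and nothing is read from them. The named genes followed both patterns, the 5 calcium kinases and sensors, SWEET5, EXPA32, Cht7 and NifU1 being higher in fst without overlap, BGLU38 and YSL4 lower, and the 4 actin genes, both beta-expansins, FBA2 and YSL7 overlapping.

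The difference between the genotypes at 5 DAP is that before flowering plus the difference of the falls, all of which the rule used, so it too is a description with no test. Of the 200, 132 were higher in fst and 68 lower, with a median difference of 0.14, and the median was 0.01 over all probe sets. Without overlap between the arrays 30 were higher in fst, as were 14.7% of all, and 9 lower, as were 12.1%. In the fit over all probe sets 25 of the 200 (12.5%) passed an adjusted p of limma under 0.05, against 11.6% of all, with 21 higher in fst (10.5%, against 6.22%) and 4 lower (2%, against 5.41%), and nothing is read from these counts. They also rested on single arrays, being 42 (40 higher and 2 lower) without replicate 2 of M5D, 13 (11 and 2) without replicate 3 of W5D, 17 (13 and 4) without replicate 2 of W5D and 19 (13 and 6) without replicate 3 of M5D.

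The genes that differed most between the genotypes at 5 DAP were still far below their signals before flowering. LOC4349048 gave 44.6, 26.99 and 40.9 in W5D and 129.5, 76.8 and 166 in M5D, a difference of 1.69, after 7596, 7793 and 7137 in WBF and 10237, 9954 and 10682 in MBF. LOC4350576 gave 15.5, 15.2 and 10.5 in W5D and 41.5, 22.8 and 85.9 in M5D, a difference of 1.68. LOC4333819 gave 14.8, 14.3 and 9.74 in W5D and 28.1, 34.2 and 36.4 in M5D, a difference of 1.36. In these 3 genes every M5D array lay above every W5D array, although the M5D arrays of LOC4350576 lay far from each other. The W5D signals of LOC4350576 and LOC4333819 were below the median of all probe sets, 30.8 to 33.6. Os.51828.2.S1_at of LOC4337660 was higher in fst by 1.12, but the probe sets of this gene did not point 1 way, since Os.51828.1.S1_at was lower in fst by 0.89 and Os.51828.2.S1_x_at by 0.19. LOC4339485 was higher by 1.10, with M5D signals of 113, 44.5 and 117, of which the lowest overlapped W5D.

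Among the members with a gene symbol NifU1 was higher in fst at 5 DAP by 1.03, YSL7 by 0.74 and BGLU38 by 0.52, without overlap, and the genotypes overlapped for every other of these. BGLU38 was near the lowest signals in both genotypes at 5 DAP. In the other direction LOC4338381 gave 16.7, 24.5 and 19.5 in W5D and 10.8, 9.91 and 12.02 in M5D, lower in fst by 0.88. All of these signals were below the median of all probe sets, 30.8 to 33.6. LOC4340325 was lower in fst by 0.94 in Os.10266.1.S1_at, where its other probe set, Os.37590.1.S1_at, was lower by 0.26. LOC4337260 was lower by 0.74 without overlap, and LOC4335467 and Os.5682.1.S1_at, lower by 0.71 and 0.61, overlapped between the genotypes.

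**Figure D5:**
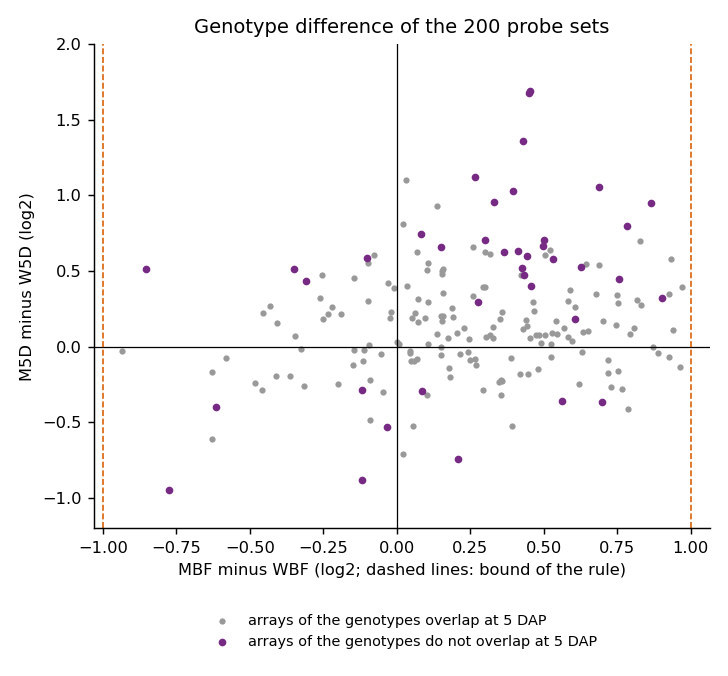
Difference in mean log2 signal between fst and WT for the 200 probe sets before flowering (horizontal, dashed lines at the bound of the rule) and at 5 DAP (vertical), with those whose arrays did not overlap between the genotypes at 5 DAP in purple. These include 30 above zero, up to 1.69, and 9 below, down to -0.94.

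A few of the 200 rested on uneven arrays. Os.7511.1.S1_at gave 541, 419 and 3939 in WBF, so replicate 3 stood far above the others, and 673, 1276 and 699.7 in MBF. LOC4350752 had the opposite, with 2418, 1864 and 284 in WBF, replicate 3 being the low array, and 1652, 1679.8 and 2100.4 in MBF. Over the 200, replicate 3 of WBF lay 0.14 below its group mean in the median and above it in 51 probe sets, and among the M5D arrays replicate 2 lay 0.14 below (above in 61) and replicate 3 0.18 above (above in 150). On every other array the median lay within 0.09 of the group mean.

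At the limit of the rule the order was close. Os.49766.1.S1_at was the last inside, with a smaller fall of 6.0068, and Os.12659.1.S1_at the first outside, with 6.0067 and a difference before flowering of 0.99. Just inside were also LOC4324324, LOC9269201, LOC9268461 and Os.10004.1.S1_s_at, with smaller falls of 6.02 to 6.03, and just outside Os.9663.1.S1_at, LOC4347926, OsAffx.4055.1.S1_at and Os.25193.1.S1_at, with 5.92 to 5.96. The bound on the genotype difference set aside 13 probe sets whose smaller fall was past the limit, 9 lower and 4 higher in fst before flowering. RTS was the one furthest from the bound, with 14625, 6518 and 15621 in WBF and 2008, 7607 and 1371 in MBF, where its arrays overlapped between the genotypes, and 19.95, 14.5 and 11.9 in W5D and 15.03, 21.2 and 13.1 in M5D. LOC4326386 and LOC4326388 were also lower in fst before flowering, by 1.01 and 1.59, and LOC4326386 went on to 7.96, 5.91 and 6.63 in M5D against 27.3, 37.6 and 60.3 in W5D.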

How the data were processed

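The deposited table held the intensity of each probe set on 12 arrays, on a linear scale, which the authors had computed with RMA in Affymetrix Expression Console (background correction, quantile normalization and summary of probes). For neither is a version given in the sources used here. No reads lie behind an intensity, and 3 arrays per group limit the precision. Intensities, called signals, were taken to log2 (floor 1, lowest value 3.00), 123 control probe sets were left out, and group means were fitted to all 12 arrays (8 residual degrees of freedom) by limma (3.58.1, under R 4.3.3), with Benjamini-Hochberg adjustment over 57258 probe sets and a threshold of 0.05. The adjusted p printed are from this fit, since an exact permutation test of 3 against 3 arrays cannot go below 0.1. The series' text calls the replicates independent. Folds are 2 to the power of the difference in mean log2.

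Names came from the platform's gene table and RefSeq synonyms (ASM3414082v1): 22436 probe sets had 1 gene, 95 several and 34727 none. The members, gene lists and markers were chosen with earlier results of these data known, and the families after seeing the members. Named were members with a name in a list, the 10 largest falls, the 5 brightest, the 5 largest differences at 5 DAP in each direction, genes with several member probe sets and those at the limit. The 6 other named genes, the uneven probe sets and the other family genes were named after their values were seen. On simulated arrays limma called 80 of 100 probe sets changed by 1 log2 unit between W5D and M5D, and 94 of 100 changed by 2. These counts are for a simulation over all 57258 probe sets. Detection among the 200, whose median signal at 5 DAP lay below that of all probe sets, was not tested. Same-numbered arrays of different groups did not deviate together (r from -0.29 to 0.07 over 18 pairs), so the numbers were not used as pairs. Alternatives changed the normalization, filters, arrays, bound, rank and mean of the rule, the moderation and weights of limma, the replicate number as a block and the threshold. Promoter motifs were planned and not analysed here.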

Additional observations from a re-analysis of the deposited data

How the results depend on the processing

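The median fall kept its direction in both genotypes under every alternative that measured it. The order of the genotypes did not hold throughout, since without replicate 3 of WBF the median fall was 7.60 in WT and 7.55 in fst. Of the 200 probe sets, 194 to 199 were chosen again when each array was left out, 199 after a second quantile normalization, 198 after centring, 198 with arithmetic means, 195 when ranked by the mean of the falls, 194 with 1 probe set per gene, 188 with no bound, 180 without cross-binding probe sets and 138 with a bound of 0.5. The replicate number as a block left all 200 chosen, and with the replicate block 24 (19 higher and 5 lower) were called at 5 DAP against 25. Leaving out each array, the median fall lay between 7.41 and 7.60 in WT and between 7.48 and 7.67 in fst. The count past the threshold between genotypes at 5 DAP, a description, was the least settled and ran from 13 to 42 (11 to 40 higher in fst, 2 to 6 lower) when an array was left out, and was 15 (12 higher) with only the 5 DAP arrays fitted, 9 (8 higher and 1 lower) at an adjusted p under 0.01, and 8 lower in fst with array weights. The cause was not tested, except that a stricter threshold on the same fit cannot call more. With probe sets that sit at the lowest signals at 5 DAP, a further fall cannot be seen, and small differences there may not be detected. The planned windows for promoter motifs were not run. Among all values of results that answer a comparison, 180 alternatives stayed within these margins and 15 did not, which are those given here. For single lists, families and genes 2031 stayed, and 22 counts moved by more than 1.5 times, each in a list or family with 11 or fewer calls in that direction. In 17 cases, each 1 gene under 1 alternative, a genotype difference at 5 DAP no longer passed. These were LOC4337260 in 4, LOC4339485 in 6 and YSL7 in 7. In 1 case it now passed (Os.5682.1.S1_at without replicate 1 of M5D). Such passes are a description too, since the rule used these values.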
